A study of Mus musculus with 4 samples.

Results

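The 8 genes described here code for complement proteins: C3, C4b, C1ra, C1s1, C2, Cfb, Serping1 and Cd55. They were found by symbol among the 31053 genes counted in single liver cells, and all 8 were present. Their unique molecular identifiers (UMIs, 1 per captured transcript) were summed in each library and in each class of cells, with the weight on mesothelial-like cells, the cells that carry markers of the sheet covering the liver.

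Complement is a cascade of blood and tissue proteins that marks surfaces for removal and recruits leukocytes. In the classical pathway the protease C1r activates C1s, which cleaves C4 and C2, whose fragments form an enzyme that cleaves C3, and factor B replaces C2 in the alternative pathway. Hepatocytes are the main source of the plasma proteins, while mesenchymal and epithelial cells can make many components locally. C1 inhibitor, the product of Serping1, blocks C1r and C1s, and CD55 is a membrane protein that speeds the decay of the C3-cleaving enzymes.

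The mice received a methionine- and choline-deficient diet with 45% fat and 0.1% L-methionine in the drinking water (MCDHF) for 8 weeks, a model of non-alcoholic steatohepatitis. All groups carried Col1a2-CreERT2, an inducible Cre driven by the Col1a2 promoter, with a tdTomato reporter, so the label follows cells in which this collagen promoter was active and is not a marker of one cell type. The 3 libraries of non-parenchymal cells analysed were reporter-positive cells of recovery mice (positive recovery, genotype written Col1a2-CreERT2; R27RtdTomato), reporter-negative cells of recovery mice (negative recovery, R29RtdTomato) and reporter-negative cells of MCDHF-injury mice (negative injury, R28RtdTomato). A reporter-positive injury library (R26RtdTomato) was not analysed here, and the study's design text gives R26RtdTomato for the reporter throughout. The sources used here do not give the length of recovery, the age or number of the mice, or how positive and negative cells were parted.

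Each group was 1 library, so no difference below has a replicate check and no test was possible. Values are UMIs per 1000000 UMIs (CPM) of the summed cells with exact 95% Poisson intervals, which cover counting error only. A log2 ratio compares CPM + 10 between groups, and a gene was called higher or lower at 2-fold or more on that scale if it reached 10 CPM in either group. Beside each count of called members stands the share of all genes called the same way.

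After filtering, 2380 positive recovery, 2949 negative recovery and 5443 negative injury cells remained, with median depths of 11232, 8670.0 and 6849 UMIs per cell. Clusters were built without the complement genes and named from pairs of markers. Mesothelial-like cells (Upk3b and Nkain4) numbered 1191 of these cells in positive recovery, 79 in negative recovery (2.68%) and 336 in negative injury (6.17%). In the 3 clusters that held them, numbers 2, 9 and 10, all 12 mesothelial markers were at least 2-fold above the median cluster. In the negative recovery library all 79 were in cluster 2, and in negative injury 334 of 336 were in cluster 9. Leukocyte markers were near 0 in these cells, with a summed level of 10.3 CPM in positive recovery, 0 in negative recovery and 0.499 CPM in negative injury.

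The other classes were stellate-like (Lrat and Reln), endothelial-like (Kdr and Ptprb), macrophage-like and T-cell-like cells. Cells with Epcam and Spp1, the pair taken to mark bile ducts, also had the hepatocyte genes Alb and Ttr among their leading genes in most clusters, so they are called Epcam and Spp1 cells. Cells with Dpt and Mfap4 carried stellate markers too and are called by those genes, and an Alb-high class was kept apart. Pairs of the 3 analysed libraries shared 3, 5 and 8 cell barcodes. A further 507 positive recovery cells in a cluster with a median of 785.5 UMIs were left unnamed. The cluster also held 27 negative recovery and 12 negative injury cells. Its best marker pair was mesothelial, with all 12 mesothelial markers at least 2-fold above the median cluster. At Leiden resolution 0.5, mesothelial-like cells numbered 1663, 95 and 342 in positive recovery, negative recovery and negative injury. In negative injury a group of 51 cells with a median of 861 UMIs was mesothelial-like at the resolution of 1 used here. At resolution 2 these cells formed a cluster without a class, and 285 negative injury cells were mesothelial-like. Shallow cells were thus not classed alike across libraries.

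The genes lie at several places in the genome (GENCODE M21, GRCm38). Cfb (ENSMUSG00000090231, chr17:34856374-34862518) and C2 (ENSMUSG00000024371, chr17:34862604-34898265) are neighbours on the minus strand, with 85 bases between them. C4b (ENSMUSG00000073418, chr17:34728380-34743882) lies near them on the minus strand, and C3 lies farther along the same chromosome and strand (ENSMUSG00000024164, chr17:57203970-57228136). C1ra (ENSMUSG00000055172, chr6:124512405-124523443, plus strand) and C1s1 (ENSMUSG00000038521, chr6:124530345-124542359, minus strand) are neighbours with 6901 bases between their facing ends. Serping1 (ENSMUSG00000023224) is at chr2:84765387-84775444 and Cd55 (ENSMUSG00000026399) at chr1:130439027-130462744, both on the minus strand. An annotated gene, Gm20547, overlaps both C2 and Cfb and had 0 UMIs in all 3 libraries, so the authors' counting could have dropped or split reads of C2 and Cfb. C4a, a near copy of C4b, was not among the counted genes, so reads of the C4 pair cannot be told apart here. The near copies C1rb, C1s2 and Cd55b held at most 32 UMIs in any library.

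Promoter windows were sought for all 8 genes, and RefSeq (GRCm38.p6) gave start sites for 4 of them: C3, C1ra, C1s1 and Cd55. These 4 were not picked by their levels. Each line gives the 250 bases before the start site, 5′ to 3′ on the gene's strand, with matches to the C/EBP motif TTGCNNAA on either strand in capitals.
C3 (chr17:57228137-57228386, minus strand): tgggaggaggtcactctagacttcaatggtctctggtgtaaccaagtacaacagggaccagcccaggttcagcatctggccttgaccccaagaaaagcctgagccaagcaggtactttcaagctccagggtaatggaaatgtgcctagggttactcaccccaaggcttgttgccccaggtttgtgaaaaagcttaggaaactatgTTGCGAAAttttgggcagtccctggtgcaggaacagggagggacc
C1ra (chr6:124512371-124512620, plus strand): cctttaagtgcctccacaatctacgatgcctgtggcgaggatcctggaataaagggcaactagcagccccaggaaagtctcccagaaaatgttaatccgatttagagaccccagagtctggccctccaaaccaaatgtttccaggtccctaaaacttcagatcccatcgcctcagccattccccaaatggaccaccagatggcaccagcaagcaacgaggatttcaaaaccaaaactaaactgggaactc
C1s1 (chr6:124542360-124542609, minus strand): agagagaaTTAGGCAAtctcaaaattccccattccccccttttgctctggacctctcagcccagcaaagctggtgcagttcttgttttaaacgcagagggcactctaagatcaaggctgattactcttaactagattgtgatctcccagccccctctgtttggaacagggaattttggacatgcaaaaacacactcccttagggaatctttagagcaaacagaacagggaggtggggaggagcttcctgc
Cd55 (chr1:130462745-130462994, minus strand): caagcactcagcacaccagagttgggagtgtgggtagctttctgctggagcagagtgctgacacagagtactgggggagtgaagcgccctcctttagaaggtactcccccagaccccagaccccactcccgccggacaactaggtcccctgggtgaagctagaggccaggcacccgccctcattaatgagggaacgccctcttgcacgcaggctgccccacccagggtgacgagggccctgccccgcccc
The C3 window held 1 match, 45 to 38 bases before the start, and the C1s1 window held 1 match, 242 to 235 bases before it. The same motif stood in 9.56% of 32851 RefSeq promoters of this length. None of these windows, nor a second C1s1 start site, held the interferon motifs TTCNNNGAA (GAS, 7.02% of promoters) or the ISRE core (2.98%), or the NF-kB motif, which stood in 1643 promoters. The GC content was 64.0% for Cd55, against 52.0% for C3, 49.6% for C1ra and 48.0% for C1s1. For C1ra the RefSeq and GENCODE starts differ. Its window begins at base 124512371 and the GENCODE gene at 124512405, so most of the window lies inside that gene. The lack of motifs there holds for the RefSeq start only.

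Of the 8 genes, 7 were far higher in mesothelial-like cells than in endothelial-like cells, the most numerous class of the negative libraries, and Cd55 was the exception. C3, the central component whose cleavage all pathways share, reached 8957 CPM [8919 to 8996] in mesothelial-like cells of positive recovery, 9551 CPM [9394 to 9709] of negative recovery and 14709 CPM [14612 to 14806] of negative injury. In endothelial-like cells C3 had 155, 13.8 and 27.1 CPM in the same libraries. The log2 ratios of mesothelial-like over endothelial-like cells were 5.77, 8.65 and 8.63. In each library 7 members were called higher (13.7% of genes in positive recovery, 13.4% in negative recovery, 13.4% in negative injury) and Cd55 was called lower (16.0%, 17.4% and 17.2% of genes).

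C1ra and C1s1 code for the proteases that start the classical pathway. C1ra had 657 CPM in mesothelial-like cells of positive recovery, 687 of negative recovery and 1418 of negative injury, against 45.7, 39.8 and 36.0 CPM in endothelial-like cells. C1s1 had 778, 667 and 1074 CPM in mesothelial-like cells, against 20.1, 1.08 and 1.89 CPM in endothelial-like cells of the same libraries. Both genes were also clearly present in stellate-like cells, where C1ra had 365 CPM in positive recovery and 546 CPM in negative injury. C1s1 was near 0 in Epcam and Spp1 cells, with 0.728 CPM from 4 UMIs in negative recovery and 2.86 CPM in negative injury.

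C4b, which codes for the C4 protein that C1s cleaves, had 1719 CPM [1702 to 1736] in mesothelial-like cells of positive recovery, 2299 CPM [2223 to 2378] of negative recovery and 980.3 CPM [955 to 1006] of negative injury. C2, the protease partner of C4, had 655, 759.8 and 759 CPM in mesothelial-like cells of the same libraries. C2 was close to the mesothelial level in 1 other class: stellate-like cells of negative injury had 571 CPM, a log2 ratio of mesothelial-like over stellate-like cells of 0.40. In positive recovery the stellate-like cells had 171 CPM of C2. Cfb, the alternative pathway protease, had 569 CPM [559 to 579] in mesothelial-like cells of positive recovery, 626 CPM [587 to 668] of negative recovery and 1599 CPM [1567 to 1631] of negative injury.

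Serping1, the gene of C1 inhibitor, was the most even member across mesothelial-like cells. It had 2206 CPM [2186 to 2225] in positive recovery, 2132 CPM [2058 to 2207] in negative recovery and 2165 CPM [2128 to 2202] in negative injury. Stellate-like cells were near these levels, with 1312 CPM in positive recovery and 2204 CPM in negative injury. Endothelial-like cells had 35.6, 4.41 and 9.77 CPM of Serping1 in positive recovery, negative recovery and negative injury.

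Cd55 was highest in endothelial-like cells. Mesothelial-like cells had 159.6 CPM [154 to 165] in positive recovery, 141 CPM [123 to 161] in negative recovery and 445 CPM [429 to 463] in negative injury. Endothelial-like cells had 815 CPM [767 to 866], 920.3 CPM [907 to 934] and 1111 CPM [1097 to 1124] in those libraries. The log2 ratios of mesothelial-like over endothelial-like cells were -2.28, -2.62 and -1.30. Among endothelial-like clusters of negative recovery, Cd55 was 979 and 947 CPM in the clusters numbered 0 and 12. It was 629 CPM in cluster 11, led by Rspo3 and Vwf, and 455 CPM in cluster 16, led by Vwf, Ly6c1 and Mgp. The same clusters 11 and 16 were lowest in negative injury, at 836 and 471 CPM, against 1076 to 1209 CPM in clusters 1, 3, 5 and 8.

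**Figure D1:**
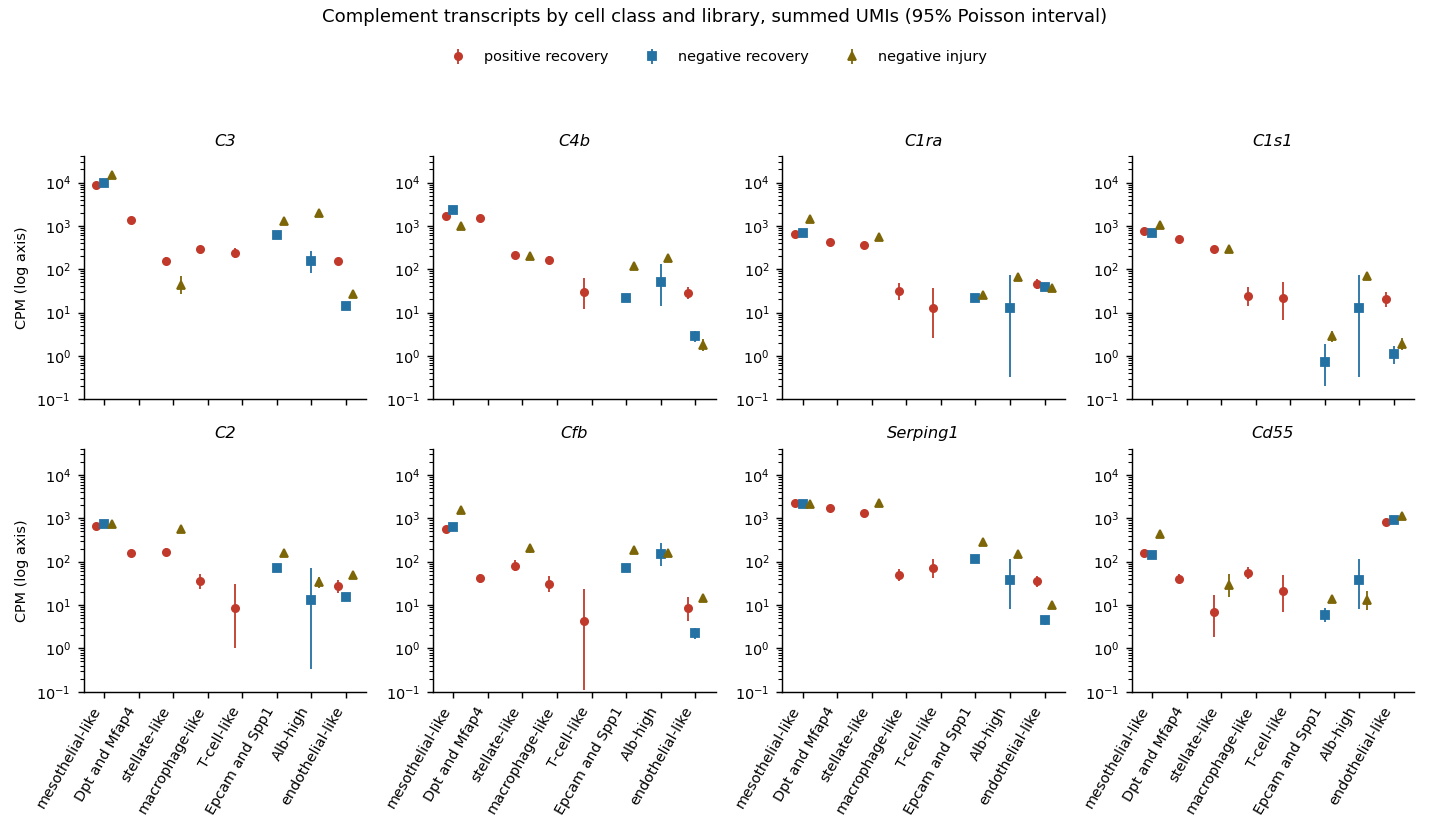
Level of each complement gene in CPM on a log axis, by cell class with at least 30 cells and by library (circles positive recovery, squares negative recovery, triangles negative injury), with 95% Poisson intervals. In 7 panels the mesothelial-like points are at or near the top, and in the Cd55 panel the endothelial-like points at 815 to 1111 CPM lie above the mesothelial-like points at 141 to 445 CPM.

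Set against the other stromal classes, some members were higher in mesothelial-like cells and others had similar levels in both. Over the Dpt and Mfap4 cells of positive recovery (135 cells), C3, C2, Cfb and Cd55 were called higher in mesothelial-like cells (8.17% of genes), with log2 ratios of 2.72, 2.01, 3.49 and 1.74. C4b, C1ra, C1s1 and Serping1 stayed within 2-fold, at 0.21, 0.60, 0.60 and 0.33. C4b had 1719 CPM in the mesothelial-like cells and 1482 CPM in the Dpt and Mfap4 cells. The Dpt and Mfap4 class was 135 cells of 212 before cells with markers of another class were left out. Under the alternatives run, which included keeping those cells, the Cd55 log2 ratio ran from 1.21 to 1.95.

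Over stellate-like cells, 6 members were called higher in mesothelial-like cells of positive recovery (11.7% of genes) and 6 in negative injury (12.7%). C3 had the widest gap, with 8957 CPM in mesothelial-like and 152 CPM in stellate-like cells of positive recovery, and 14709 and 44.3 CPM in negative injury. Serping1 was within 2-fold in both libraries, at 0.75 in positive recovery and -0.03 in negative injury. C1ra was within 2-fold in positive recovery at 0.83, and C2 in negative injury at 0.40. The stellate-like class of positive recovery was small, 59 cells of 115 before cells with markers of another class were left out. With those cells left out the Cd55 log2 ratio was 3.34 and with them kept it was -1.06, while C1ra and Serping1 passed 2-fold at 1.28 and 1.26 with them kept. C4b was called higher at 2.95, but was within 2-fold at 0.86 when classes were taken from marker pairs in single cells.

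Over Epcam and Spp1 cells all 8 members were called higher in mesothelial-like cells (10.2% of genes in negative recovery, 9.26% in negative injury). These cells still held C3 at 628 CPM in negative recovery and 1318 CPM in negative injury. Cfb there was 72.0 and 182 CPM, and Serping1 116 and 280.4 CPM. Cd55 was near 0 in negative recovery, with 33 UMIs, and 14.1 CPM in negative injury. Hepatocyte markers summed to 7247 CPM in the main recovery cluster of these cells, and the part of hepatocyte RNA in the levels was not tested. Alb-high cells of negative injury, the class nearest to hepatocytes, had 1939.6 CPM of C3, 159 CPM of Cfb and 177 CPM of C4b, all below the mesothelial-like levels of that library. All 8 members were called higher in mesothelial-like than in Alb-high cells (48.1% of genes in negative recovery, 23.3% in negative injury). The median share of mitochondrial UMIs in Alb-high cells was 0.364% in negative recovery and 0.435% in negative injury. Endothelial-like cells of the same libraries had 5.23% and 5.18%. Whether Alb-high cells stand for intact hepatocytes was not tested, so these calls are not read as a comparison with hepatocytes. The Alb-high class of negative recovery held 77749 UMIs in 35 cells. It had 1 UMI each of C1ra, C1s1 and C2 and 3 UMIs each of Serping1 and Cd55, so the calls for these genes there rest on few UMIs.

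In positive recovery all 8 members were also called higher in mesothelial-like than in macrophage-like cells (17.7% of genes) and T-cell-like cells (24.4%). C3 had 291 CPM in the macrophage-like and 242 CPM in the T-cell-like cells. Free RNA from broken cells adds UMIs to every droplet, and its size was read from the mesothelial markers Upk3b and Nkain4 in the other classes. The C3 that would come with those marker UMIs was 85.0% of the C3 level in endothelial-like cells, 71.4% in T-cell-like cells, 57.5% in stellate-like cells and 46.6% in macrophage-like cells of positive recovery. In endothelial-like cells it was 46.8% in negative recovery and 74.2% in negative injury. The same estimate was 11.6% in the Dpt and Mfap4 cells, and 5.08% in Epcam and Spp1 cells of negative recovery and 5.64% of negative injury. For Cd55 in endothelial-like cells it was 0.288%, 0.0103% and 0.0548% of the level in positive recovery, negative recovery and negative injury. The C3 of Epcam and Spp1 cells and the Cd55 of endothelial-like cells were far above that estimate. The C3 of the endothelial-like, T-cell-like, stellate-like and macrophage-like cells was closer to it. The estimate covers RNA of mesothelial-like cells only, not that of Alb-high cells, and was read after cells with markers of another class were left out.

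Summed over each library, most UMIs of 7 members came from mesothelial-like cells, even where these were few. They held 72.8% of all UMIs in positive recovery, 5.48% in negative recovery and 12.4% in negative injury. Of the C3 UMIs they held 94.2% [94.1 to 94.3], 74.5% [73.9 to 75.1] and 76.1% [75.9 to 76.3] in the same libraries (exact binomial 95% intervals). For the other 6 members apart from Cd55 the shares were 85.0% to 95.1% in positive recovery, 50.5% to 89.4% in negative recovery and 51.8% to 93.7% in negative injury.

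The remaining UMIs lay in different classes for different members. Epcam and Spp1 cells, with 20.2% of all UMIs in negative recovery and 34.5% in negative injury, held 18.1% and 19.0% of C3, 27.4% and 22.6% of Cfb, and 3.05% and 23.2% of C4b. Endothelial-like cells held 38.2% [36.1 to 40.4] of C1ra in negative recovery and 7.99% [7.47 to 8.53] in negative injury. For Cd55 the mesothelial-like share was 63.4% in positive recovery, 1.14% in negative recovery and 9.29% in negative injury. Endothelial-like cells held 18.3%, 97.3% and 87.6% of Cd55, against 4.11%, 71.6% and 46.7% of all UMIs.

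**Figure D2:**
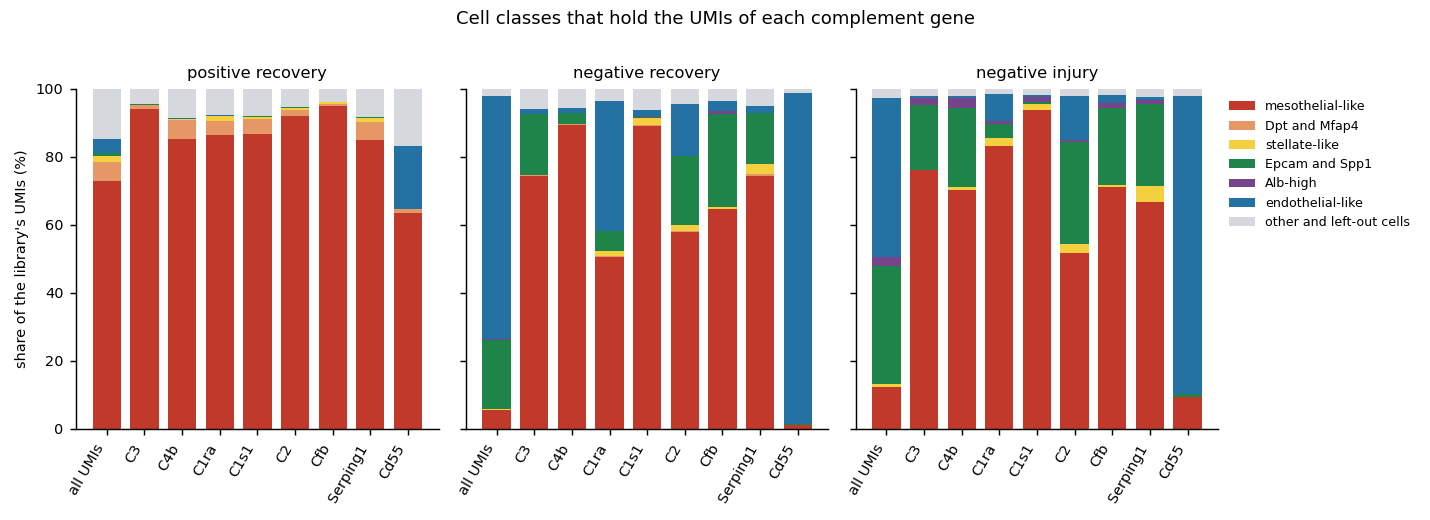
Share of the library's UMIs in percent that each cell class held, for all genes together (first bar) and for each complement gene, in 3 panels by library. The mesothelial-like segment is 5.48% of all UMIs but 74.5% of C3 in negative recovery. The endothelial-like segment is 97.3% of Cd55 in negative recovery and 87.6% in negative injury.

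The first contrast asked how the reporter-positive and reporter-negative fractions of recovery livers differed. Over all cells C3 was 6918 CPM in positive recovery and 702 CPM in negative recovery, a log2 ratio of 3.28. In all, 7 members were called higher in positive recovery (8.99% of genes), with log2 ratios between 2.69 for C2 and 3.70 for C1s1. Cd55 was called lower (10.4% of genes), with 183 CPM in positive recovery and 677 CPM in negative recovery, a log2 ratio of -1.83. The median over the 8 members was 3.05, against -0.17 over all genes tested. The fractions also differed in their mesothelial-like cells, 1191 of 2380 in positive recovery and 79 of 2949 in negative recovery. All 12 mesothelial markers were called higher in positive recovery, with a median log2 ratio of 3.14, and in these sums more cells of a type and more RNA per cell cannot be told apart.

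Within mesothelial-like cells no member passed 2-fold between the fractions. Over all genes 1.66% were called either way in positive over negative recovery. The log2 ratios ran from -0.42 for C4b, with 1719 CPM in positive and 2299 CPM in negative recovery, to 0.22 for C1s1, with 778 and 667 CPM. The positive recovery cells included 309 of cluster 10, with 318 CPM of C4b, while all 79 negative recovery cells were in cluster 2. In cluster 2 alone C4b had 2245 CPM in positive and 2299 CPM in negative recovery. C3 was at -0.09, C1ra at -0.06, C2 at -0.21, Cfb at -0.14, Serping1 at 0.05 and Cd55 at 0.17. The median was -0.08 for the members and -0.01 for all genes tested, and all 12 mesothelial markers were also within 2-fold.

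The second contrast set recovery against injury within the reporter-negative fraction. Over all cells 6 members were called lower in negative recovery (3.40% of genes) and none higher (1.53%). Cfb had 53.1 CPM in negative recovery and 278 CPM in negative injury, a log2 ratio of -2.19. C3 had 702 and 2389.7 CPM, at -1.75, and C1s1 had 41.0 and 142 CPM, at -1.57. C1ra, Serping1 and C2 were at -1.38, -1.30 and -1.23, and C2 was within 2-fold at -0.92 with 50 CPM added. C4b, at -0.28, and Cd55, at 0.19, were within 2-fold. Mesothelial-like cells were 2.68% of negative recovery and 6.17% of negative injury cells, with shallow cells not classed alike in these libraries. Over all cells 10 of 13 interferon response genes were also called lower in negative recovery, with a median log2 ratio of -2.65, and their part in these values was not tested.

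Inside mesothelial-like cells the members did not move together. C4b was the 1 member called higher in negative recovery (2.49% of genes), with 2299 CPM in negative recovery and 980.3 CPM in negative injury, a ratio of 2.35 [2.25 to 2.45]. Cd55, Cfb and C1ra were called lower (2.59% of genes). Cd55 had 141 CPM in negative recovery and 445 CPM in negative injury, a ratio of 0.316 [0.274 to 0.364]. Cfb had 626 and 1599 CPM, a ratio of 0.392 [0.366 to 0.419], and C1ra had 687 and 1418 CPM, a ratio of 0.485 [0.454 to 0.517]. C1ra was near the limit, with a log2 ratio of -1.03 and of -0.99 when 50 CPM was added in place of 10. The counting intervals of the libraries did not overlap for these 4 genes, nor for C3 and C1s1. The share of all genes with such intervals was not counted, and the intervals cover counting error only. Nothing about these genes is read from the lack of overlap.

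C3 and C1s1 were lower in negative recovery without reaching 2-fold. C3 had 9551 CPM in negative recovery and 14709 CPM in negative injury, a log2 ratio of -0.62, and C1s1 had 667 and 1074 CPM, at -0.68. C2, with 759.8 and 759 CPM, and Serping1, with 2132 and 2165 CPM, each had levels within counting error between the libraries. Their log2 ratios were 0.00 and -0.02, and the ratio of Serping1 had an interval of 0.947 to 1.02. The member median was -0.65, against 0.10 over all genes tested.

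Other measures moved with this contrast. Of 13 interferon response genes tested, 11 were called lower in mesothelial-like cells of negative recovery, with a median log2 ratio of -1.99 and a summed level of 2525 CPM in negative recovery and 6270.5 CPM in negative injury. Of 12 dissociation stress genes, 4 were called lower, with 12276 CPM summed in negative recovery and 19148 CPM in negative injury. The median depth was 15757 UMIs per cell in negative recovery and 19150.5 in negative injury. The cells lay in cluster 2 in recovery and in cluster 9 in injury. The part of any of these in the complement values was not tested.

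**Figure D3:**
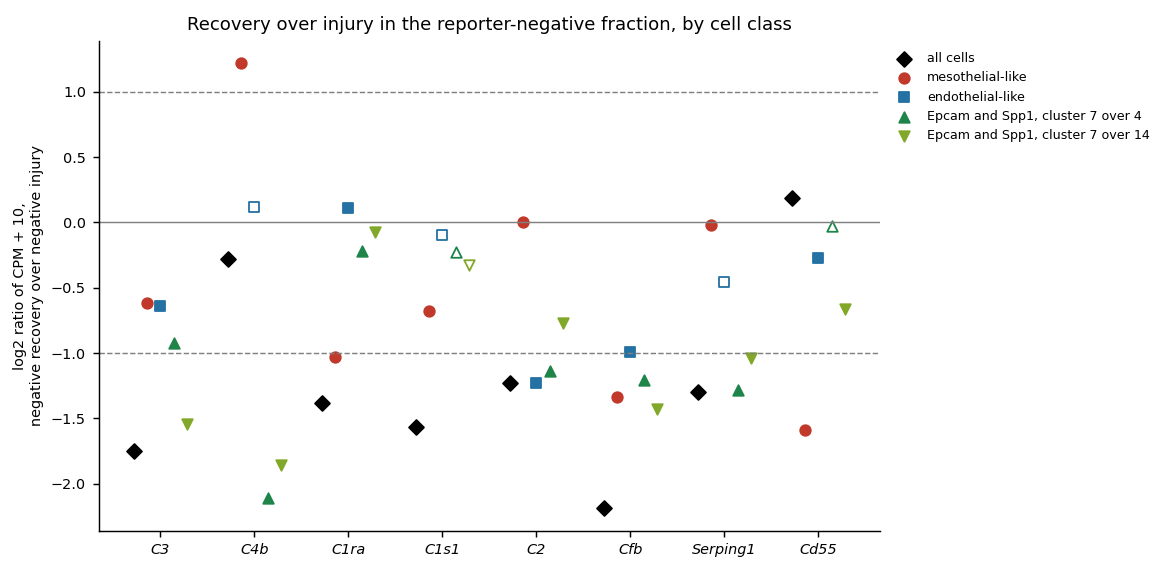
Log2 ratio of CPM + 10, negative recovery over negative injury, for each complement gene in all cells, mesothelial-like cells, endothelial-like cells and clusters of Epcam and Spp1 cells; open symbols mark genes under 10 CPM in both libraries and dashed lines mark 2-fold. C4b stands at 1.22 in mesothelial-like cells and at -2.11 and -1.86 in Epcam and Spp1 clusters.

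The other classes did not all share the mesothelial pattern. In endothelial-like cells C2 was the 1 member called lower in negative recovery (2.65% of genes), with 15.4 CPM in negative recovery and 49.6 CPM in negative injury, a log2 ratio of -1.23 that was -0.61 with 50 CPM added. Cfb was just inside the limit at -0.99, with 2.26 and 14.3 CPM, and at -2.23 with 1 CPM added. Cd55, abundant there, was at -0.27 with 920.3 and 1111 CPM, and C3 at -0.64 and C1ra at 0.11 were also within 2-fold. C4b, C1s1 and Serping1 were under 10 CPM in both libraries.

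Epcam and Spp1 cells were compared by cluster, since most of their cells sat in cluster 7 in recovery and in clusters 4 and 14 in injury. In cluster 7 of negative recovery over cluster 4 of negative injury, C4b, C2, Cfb and Serping1 were called lower (1.80% of genes). C4b had 20.8 CPM in cluster 7 and 123 CPM in cluster 4, a log2 ratio of -2.11. Over cluster 14 of negative injury, C3, C4b, Cfb and Serping1 were called lower (3.25% of genes), with C3 at 607 CPM in cluster 7 and 1783 CPM in cluster 14. C4b was again lower, at -1.86, with 102 CPM in cluster 14. Hepatocyte markers, present in these cells, summed to 7247 CPM in cluster 7, 12036 CPM in cluster 4 and 4721 CPM in cluster 14. Interferon response genes were called lower in 12 of 13 over cluster 4 and 13 of 14 over cluster 14, and the part of either list was not tested. Cfb was lower in recovery in both classes, at -1.34 in mesothelial-like cells, and -1.21 and -1.43 in the cluster comparisons. The Alb-high cells of negative recovery held 77749 UMIs in 35 cells, and 31.5% of all genes were called lower there and 13.1% higher, so the 5 members called lower and Cd55 called higher there are not read further.

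The mesothelial-like cells of positive recovery fell into cluster 10, with 309 cells and 424 CPM of Osr1, and cluster 2, with 880 cells and 8.84 CPM of Osr1. Osr1 codes for a transcription factor that the study's title names. C4b separated these clusters most, with 318 CPM [304 to 332] in cluster 10 and 2245 CPM [2222 to 2268] in cluster 2, a log2 ratio of -2.78. It was the 1 member called lower in cluster 10 (4.53% of genes), and none was called higher (4.68%). C2 had 406 CPM in cluster 10 and 748 CPM in cluster 2, at -0.87.

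The genes of the proteases upstream of C4 and C2 were higher in cluster 10 without reaching 2-fold. C1s1 had 1048 CPM in cluster 10 and 677 CPM in cluster 2, at 0.62, and C1ra had 759 and 618 CPM, at 0.29. Cd55 had 209 and 141 CPM, at 0.53. C3, with 8011 CPM in cluster 10 and 9292 CPM in cluster 2, Cfb, with 512 and 586 CPM, and Serping1, with 2150.4 and 2229 CPM, had log2 ratios of -0.21, -0.19 and -0.05. The clusters were made from the same cells, with the complement genes left out, so these values are a description. In cluster 10, 6 of 10 fibroblast markers tested and 3 of 12 dissociation stress genes were called higher, and Msln, a mesothelial marker, had 398 CPM in cluster 10 and 1547 CPM in cluster 2; their part in the C4b value was not tested.

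At a Leiden resolution of 2, the C4b level was again 318 CPM in the 309 cells of cluster 10, while the 880 cells of cluster 2 split into 3 groups. Groups of 481 and 307 cells had 2279 and 2098 CPM of C4b. The remaining 92 cells, with a median of 4020.5 UMIs, had 4441 CPM of C4b and 14997 CPM of C3. In negative recovery the matching clusters had 2527 and 2131 CPM of C4b. Cluster 2 cells of positive recovery, at 2245 CPM, were thus near the cluster 2 cells of negative recovery, at 2299 CPM.

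**Figure D4:**
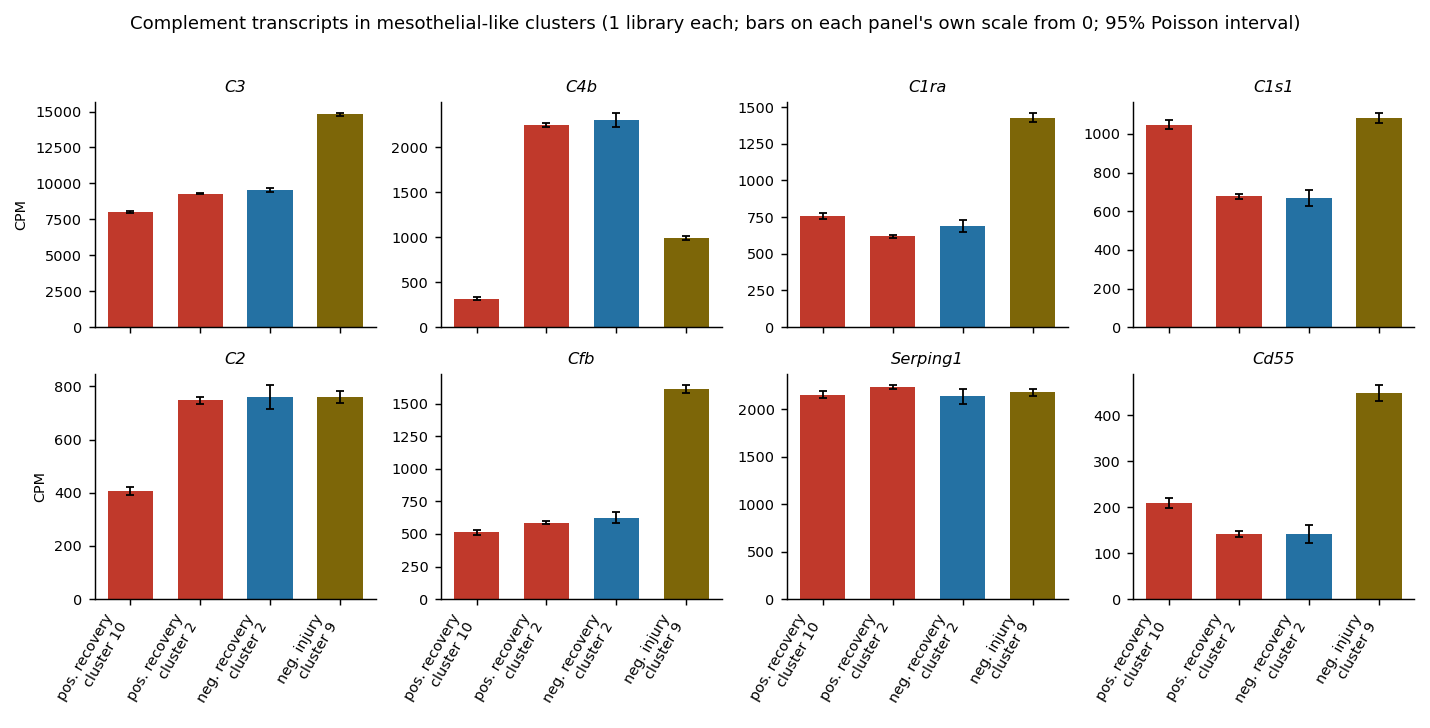
CPM of each complement gene in the mesothelial-like clusters of each library (positive recovery clusters 10 and 2, negative recovery cluster 2, negative injury cluster 9), bars from 0 with 95% Poisson intervals, each panel on its own scale. C4b is 318 CPM in cluster 10 and 2245 CPM in cluster 2 of positive recovery, and Cfb, C1ra and Cd55 are tallest in negative injury.

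Single mesothelial-like cells carried several complement transcripts at once. When each cell was thinned to 1000 UMIs, C3 had a UMI in 99.7% [99.1 to 99.9] of 1189 positive recovery cells, in all 79 negative recovery cells and in all 309 negative injury cells. From the lower to the upper quartile, cells had 6 to 12 C3 UMIs in positive recovery, 5 to 13 in negative recovery and 10 to 18 in negative injury. A cell had a UMI of a median of 5, 5 and 6 of the 8 members in the same libraries, and 78.0%, 86.1% and 90.9% of cells had at least 4. Without thinning the median was 8 of 8 in every library, at depths of 15738, 15757 and 19150.5 UMIs.

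The detection of C4b and Cfb differed most between libraries. After thinning C4b had a UMI in 68.0% [65.3 to 70.7] of positive recovery cells, 89.9% [81.0 to 95.5] of negative recovery cells and 51.5% [45.7 to 57.2] of negative injury cells. For Cfb the shares were 39.2%, 32.9% and 76.7%, and for Cd55 14.7%, 11.4% and 33.7%, both highest in negative injury. Serping1 was steady at 86.4%, 86.1% and 86.7%. For C4b, the positive recovery class included 309 cells of cluster 10, at 318 CPM, while all 79 negative recovery cells were in cluster 2. In cluster 2 alone C4b had 2245 CPM in positive and 2299 CPM in negative recovery. As a background, C3 had a UMI in 30 of 149, 34 of 2265 and 97 of 3672 thinned endothelial-like cells, or in 65.4%, 8.79% and 13.9% of these cells before thinning, at median depths of 8879.5, 8400.0 and 6033 UMIs. Cd55 had a UMI in 45.0%, 56.9% and 63.8% of thinned endothelial-like cells.

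Of 44 other complement genes, few were expressed in mesothelial-like cells, and these were mostly regulators. Clu, which codes for clusterin, an inhibitor of the terminal complex, had 1199, 1288 and 977 CPM in positive recovery, negative recovery and negative injury, and Cr1l, the membrane regulator Crry of mice, had 92.2, 94.0 and 72.5 CPM. Cfi, the protease that inactivates C3b, had 10.9, 14.1 and 42.3 CPM, and was called lower in negative recovery than in negative injury at -1.12. Of the 44 genes, 6 reached 10 CPM and could be called in each mesothelial contrast by library, and Cfi was the 1 called lower (2.59% of all genes in negative recovery over negative injury). Between clusters 10 and 2 of positive recovery, Colec11, a recognition lectin, was lower in cluster 10, with 3.88 CPM in cluster 10 and 28.2 CPM in cluster 2.

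Recognition components other than Colec11, and terminal components, were at or near 0. C1qa, a subunit of C1q, had 2.58, 0 and 0.832 CPM in mesothelial-like cells of positive recovery, negative recovery and negative injury. Cfd, the protease that activates factor B, C5ar1, a receptor for the C5a fragment, and Fcnb, a ficolin, had 0 UMIs in all 3. In the largest of these classes, positive recovery, a count of 0 allows up to 0.131 CPM, taken as 3 counts of the class's UMIs. Hc, the gene of C5, was at 0.175 CPM in positive recovery.

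Across the 15 combinations of class and library with at least 30 cells, the levels of C1ra and C1s1 were closely alike, with a Pearson correlation of 0.948 over log2 of CPM + 10. The groups share libraries and free RNA, so the correlations are descriptions. C1ra was most like Rasl11a (0.961), Gpx8 (0.956) and Col6a2 (0.952), and C1s1 was most like C1ra, Rarres2 (0.945) and Col6a2 (0.937). C4b was most like Nupr1 (0.920), C1s1 (0.907) and Serping1 (0.891). Serping1 was most like Chpf (0.941), Prnp (0.928) and Rasl11a (0.927).

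C2 was most like Efna5 (0.942), Rasl11a (0.937) and Pkia (0.936), Cfb was most like Kiz (0.916), Sdc4 (0.896) and Mpp6 (0.887), and C3 was most like Ppp1r14b (0.912), Nav2 (0.907) and Cobll1 (0.899). Cd55 stood apart from the other members, with correlations of -0.310 to 0.114, and was most like the endothelial genes Nrp2 (0.943), Npr1 (0.930) and Aqp1 (0.929). Among the other 7 members the correlations ran from 0.544, between C3 and C1ra, to 0.948.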

How the data were processed

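Gene counts per cell barcode of 3 libraries (10x Genomics 3′ v2, per the labels) were used as the authors deposited them, as UMI counts in matrices whose headers name software version 3.1.0. The submitters' processing notes name mm10, GRCh38, fastp and featureCounts 1.6.2. Deposited barcodes numbered 2606 in positive recovery, 3108 in negative recovery and 6160 in negative injury, with 33442403, 27816768 and 49993127 UMIs. Cells with at least 500 UMIs and 300 genes and at most 20% mitochondrial UMIs were kept. Clustering in scanpy 1.11.5 used 1968 variable genes, 30 components, 15 neighbours and Leiden resolution 1, which gave 24 clusters. A cluster was classed from the best of its marker pairs. Doublet calls marked 4.34% of positive recovery but 0.203% and 0.0918% of the negative libraries, where the caller did not work, so cells with at least 2 UMIs of another class's pair, at 25% or more of that class's level, were left out. Named genes were the 8 members, pathway genes past 2-fold or at 50 CPM, and the 3 genes most like each member. The members and all gene lists were chosen with earlier results of these data known. Alternatives changed the added CPM, scaling (TMM in edgeR 4.0.16), filters, clustering and free RNA. The ratio, call and interval steps were run on simulated Poisson counts with planted 4-fold changes. Those counts held no spread between libraries, free RNA or mixed cells, so the run checks the calculation only. Some pathway genes are not reported here.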

Additional observations from a re-analysis of the deposited data

Results flagged for a closer look

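C4b differed in direction between cell classes in negative recovery over negative injury. It was higher in recovery in mesothelial-like cells, with a log2 ratio of 1.22. It was lower in recovery in Epcam and Spp1 cells, at -2.11 for cluster 7 of recovery over cluster 4 of injury and -1.86 for cluster 7 over cluster 14. In Alb-high cells it was at -1.60, from 4 UMIs in recovery and 242 UMIs in injury, in a comparison where 31.5% of all genes were called lower. Each value rests on 1 library per group, and the difference between the classes was not tested. The C4b that free mesothelial RNA would bring to Epcam and Spp1 cells was 36.1% of the level in negative recovery and 4.27% in negative injury.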

How the results depend on the processing

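Of 66 alternative values of the main results, 57 kept their reading. Small changes in a count of called genes were taken as kept, including the losses of C1ra and C2 named below. Of the values for single genes, 879 stayed within their counting error, 192 moved by more than it and 1 reversed. No member passed 2-fold in mesothelial-like positive over negative recovery under any of the alternatives run. In mesothelial-like negative recovery over negative injury, 3 to 4 members were called, C1ra being lost with 50 CPM added, with C4b between 1.04 and 1.24, Cfb between -1.52 and -1.29, Cd55 between -1.76 and -1.38 and C1ra between -1.21 and -0.99 on the log2 scale. Over all cells 5 to 6 members were called in this contrast, C2 being lost at -0.92 with 50 CPM added. C4b in mesothelial-like over stellate-like cells of positive recovery, 2.95, was 0.86 with classes from marker pairs in single cells. In endothelial-like cells the 1 call became 2 with 1 CPM added, 2 under TMM, 2 with classes from marker pairs in single cells and 0 with 50 CPM added. In the rest of the pathway the 1 call became 2 with 1 CPM added, 0 with 50 CPM added and 2 with mixed cells kept, an alternative chosen after seeing the data. The median of 5 members per thinned cell was 8 unthinned, and the mesothelial-like share of C3 in positive recovery, 94.2%, was 88.6% over all deposited barcodes. Cd55 in mesothelial-like over stellate-like cells of positive recovery reversed from 3.34 to -1.06 with mixed cells kept. The cause was not tested. TMM moved the median of all genes in negative recovery over negative injury by -0.13 over all cells, -0.18 in mesothelial-like and -0.20 in endothelial-like cells. It moved it by 0.16 in positive over negative recovery over all cells and by up to 0.29 between classes. No paired analysis was possible because each group is 1 library, and no library could be left out. Levels under 10 CPM rest on few UMIs in the small classes.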
